A study of Mus musculus with 12 samples.

Results

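The nuclear-encoded genes of oxidative phosphorylation (OXPHOS) were followed in the cortex and cerebellum of mice that model spinocerebellar ataxia type 1 (SCA1). The members are the genes whose symbols carry the naming roots of the respiratory complexes: Nduf with a, b, c, s or v for complex I, Sdha to Sdhd for complex II, Uqcr and Cyc1 for complex III, Cox5 to Cox8 for complex IV and Atp5 for complex V. Assembly factors were left out, and a gene had to average 10 normalized counts over the 12 libraries. The rule took 81 of the 15759 genes in the table, and none that matched it fell under the minimum. These were 36 genes of complex I, 4 of complex II, 9 of complex III, 15 of complex IV and 17 of complex V. Gene symbols do not follow the complexes everywhere: the Ndufa4 protein is now placed in complex IV, and Cox7a2l, Atp5s and Atp5sl are not counted as subunits. In the other direction, 7 tested genes for subunits, cytochrome c or an inhibitor of the complexes are missed by the rule, among them Cox4i1 and Ndufab1.

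In OXPHOS, complexes I and II pass electrons from NADH and succinate to ubiquinone, complex III passes them to cytochrome c, and complex IV passes them to oxygen. Complexes I, III and IV pump protons across the inner mitochondrial membrane, and complex V, the ATP synthase, uses the proton gradient to make ATP. Neurons draw most of their ATP from this pathway. Some complex IV subunits come in a widely expressed isoform and a second isoform best known from heart and skeletal muscle or from testis. The subunits encoded by the mitochondrial genome were not analysed here.

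The study sequenced polyadenylated RNA from macrodissected whole cortex and whole cerebellum at 12 weeks of age. SCA1 KI mice carry Atxn1 154Q/2Q, that is, 1 allele expanded to 154 glutamine codons and driven by the gene's own regulatory elements, and 1 allele with 2, on a pure C57BL/6J background. Wild-type (WT) littermates served as controls, and each of the 4 groups (WT cortex, SCA1 KI cortex, WT cerebellum, SCA1 KI cerebellum) holds 3 libraries described as biological replicates. The labels give the sequenced mice as male, whereas the methods speak of males and females combined, and the cerebellar libraries are an earlier data set of the same laboratory, so that region and sequencing set cannot be told apart. Libraries are named here by group and by the letter (cortex) or number (cerebellum) of their column.

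The libraries held 29520855 to 51311309 reads on genes. All 9 tested markers of cortical excitatory neurons were higher in WT cortex than in WT cerebellum, and all 9 tested markers of cerebellar granule cells were lower, as the tissue labels say. Atxn1 itself was at 6521 to 8147 normalized counts in WT cortex, 4604 to 7249 in SCA1 KI cortex, 3628 to 3737 in WT cerebellum and 3717 to 4138 in SCA1 KI cerebellum; reads of both alleles are summed, so its level does not check the genotype. Among the cerebellar libraries, Tcf7l2, listed here with thalamus and midbrain, was at 1480.4 to 2404 in WT and 210.1 to 249 in SCA1 KI. The choroid plexus transcript Ttr ranged from 365 to 69182 over these libraries. Whether dissection or genotype set these differences was not tested. In whole tissue, fewer cells of a type and less RNA per cell cannot be told apart, and the p-values measure the spread between these libraries only.

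The promoters of the widely expressed and the tissue-restricted isoforms are shown because the genotype results fell on restricted isoforms. Each sequence is the 250 bases before the RefSeq transcription start (GRCm38.p6), 5′ to 3′ on the gene's strand, with capitals marking matches on either strand to the letters of NRF1, YY1, the ETS family including GABPA (CCGGAAG), ERR (AAGGTCA) or the SP1 family (GGGCGG). The windows are chr5:115348959-115349208 (minus strand) for Cox6a1, chr7:30626115-30626364 (minus) for Cox6b1, chr7:4753095-4753344 (minus) for Cox6b2, chr19:7217617-7217866 (minus) for Cox8a and chr7:140900447-140900696 (minus) for Cox8b. The RefSeq promoter set used here held no entry for Cox6a2.
Cox6a1: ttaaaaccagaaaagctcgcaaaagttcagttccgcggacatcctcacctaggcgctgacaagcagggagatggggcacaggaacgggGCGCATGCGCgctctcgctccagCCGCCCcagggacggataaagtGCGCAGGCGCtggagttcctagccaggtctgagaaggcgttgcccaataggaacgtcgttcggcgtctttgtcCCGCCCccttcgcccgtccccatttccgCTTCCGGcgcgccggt
Cox6b1: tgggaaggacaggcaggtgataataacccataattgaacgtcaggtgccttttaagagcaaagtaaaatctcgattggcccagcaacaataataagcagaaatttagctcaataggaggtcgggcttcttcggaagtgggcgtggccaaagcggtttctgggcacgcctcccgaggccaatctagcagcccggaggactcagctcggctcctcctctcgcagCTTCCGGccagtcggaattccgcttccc
Cox6b2: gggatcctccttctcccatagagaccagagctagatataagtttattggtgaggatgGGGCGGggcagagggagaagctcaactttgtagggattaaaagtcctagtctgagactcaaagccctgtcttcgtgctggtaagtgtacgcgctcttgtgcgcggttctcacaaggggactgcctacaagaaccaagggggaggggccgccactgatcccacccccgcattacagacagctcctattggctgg
Cox8a: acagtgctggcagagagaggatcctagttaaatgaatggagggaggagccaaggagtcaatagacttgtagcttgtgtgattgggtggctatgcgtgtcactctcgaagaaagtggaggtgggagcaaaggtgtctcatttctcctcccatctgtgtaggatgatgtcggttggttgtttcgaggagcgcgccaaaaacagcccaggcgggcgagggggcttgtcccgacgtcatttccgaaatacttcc
Cox8b: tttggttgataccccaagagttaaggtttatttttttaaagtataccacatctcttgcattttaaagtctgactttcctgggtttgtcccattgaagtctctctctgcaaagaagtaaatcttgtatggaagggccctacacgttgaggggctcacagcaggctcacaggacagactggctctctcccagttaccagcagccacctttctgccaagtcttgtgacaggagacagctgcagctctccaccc
The window of the widely expressed Cox6a1 held NRF1, ETS and SP1 letters and that of Cox6b1 held an ETS match, whereas Cox6b2 held an SP1 match alone and Cox8b none. The third pair, not printed, did not follow that division: the widely expressed Cox7a2 held an SP1 match alone, like Cox6b2, and Cox7a1 none. Cox8a carried its ETS letters across and after the start, so they are not in the printed bases.

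Over windows reaching from 250 bases before to 50 after the start, 65 of the 81 members had an entry in the RefSeq promoter set used here. NRF1 letters were found in 16 of them (24.6%), against 5.19% of all 27025 promoters and 10.2% of the 11450 promoters of tested genes. ETS letters were also found in 16 (24.6%), against 9.93% and 17.4%. YY1 letters were in 5 members (7.69%, against 0.995% and 2.04%), and the ERR letters, bound by the estrogen-related receptors, were in 7 (10.8%, against 5.38% and 4.01%). SP1 letters were in 26 members (40%), against 38.2% of all promoters and 66.8% of those of tested genes. These are letter matches only.

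Levels were compared between genes per kilobase of exon. The median member of complex I was at 2436 to 2556 normalized counts per kilobase in the 4 groups, that of complex II at 2810 to 3129.9, complex III at 4492 to 4693, complex IV at 4212 to 5037 and complex V at 4072 to 4737. Atp5b, the catalytic beta subunit of the ATP synthase, had the highest level of the 79 members with an annotated length in each of the 4 groups. In WT cortex it stood at 22012 ± 622 (SD, n = 3) normalized counts per kilobase, within the spread of Cox8a, a small complex IV subunit, at 21824 ± 3706. In WT cerebellum Atp5b stood at 25448 ± 641 and Cox8a at 14318 ± 1009, a gap wider than both spreads.

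In the cortex, 2 members fell in SCA1 KI mice and none rose. Both are complex IV isoforms of low expression, Cox6a2 and Cox8b. A gene was called when its adjusted p was under 0.05 (limma, Benjamini-Hochberg over all 15369 tested genes) and its log2 fold change (LFC), on log2(normalized count + 1), was beyond 0.25. The 2 called members are 2.47% of the 81, against 15.6% of all tested genes in either direction, 4.82% higher and 10.8% lower. At an unadjusted p under 0.05, 2 members were higher and 2 lower, and edgeR and DESeq2 on the reads likewise called none higher. Without the fold limit, DESeq2 put Atp5b (LFC 0.13, DESeq2 adjusted p = 0.0443) and Sdha (LFC 0.15, DESeq2 adjusted p = 0.0131) higher, and edgeR none.

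Cox6a2 encodes the heart and skeletal muscle isoform of subunit VIa and lies at chr7:128205435-128206387 (minus strand, GRCm38). It was at 249.5, 237 and 305 normalized counts in WT cortex B, C and D and at 136, 108 and 88.3 in SCA1 KI cortex A, E and F. Every SCA1 KI library lay below every WT library. The LFC was -1.26 (SE 0.18, 95% interval -1.64 to -0.87, limma adjusted p = 4.16e-04). In the cerebellum, where it was scarcer, Cox6a2 was at 38.3, 40.3 and 36.1 in WT 2, 4 and 6 and at 20.2, 19.2 and 17.4 in SCA1 KI 1, 3 and 5. Here too the groups did not overlap, with an LFC of -0.98 (SE 0.18, 95% interval -1.36 to -0.59, limma adjusted p = 0.00632). The difference between the regions in the genotype effect was -0.28, with a 95% interval of -0.82 to 0.26 and a limma adjusted p of 0.583. Exons of Cox6a2 overlap those of Itgad on the opposite strand, and the sources used here do not say that counting used strand, so reads of the pair cannot be told apart.

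Its widely expressed partner Cox6a1 gave no call. It was at 7325, 7406 and 9955 in WT cortex B, C and D and at 10092, 7560.0 and 7318 in SCA1 KI cortex A, E and F, with an LFC of 0.02 (95% interval -0.25 to 0.29). The genotypes overlapped, with the highest library of each, WT D and SCA1 KI A, almost level. Per kilobase, Cox6a2 came to 2.57% to 2.86% of Cox6a1 in WT cortex and to 1.01% to 1.2% in SCA1 KI cortex. In the cerebellum the same share was 0.544% to 0.589% in WT and 0.246% to 0.288% in SCA1 KI.

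Cox8b, the heart and skeletal muscle isoform of subunit VIII (chr7:140898945-140900446, minus strand), sat near the detection limit in the cortex. It had 5, 8 and 8 reads in WT B, C and D and 2, 1 and 4 reads in SCA1 KI A, E and F, or 5.94, 8.86 and 9.11 against 1.97, 1.01 and 3.6 normalized counts. The groups did not overlap. From 21 WT and 7 SCA1 KI reads the ratio of SCA1 KI to WT was 0.281, with an exact 95% counting interval of 0.101 to 0.686, which covers counting error only. The LFC was -1.55 (SE 0.38, limma adjusted p = 0.0138), and the call was lost with the cortex fitted on its own (limma adjusted p = 0.08), under DESeq2 (0.0645) and without WT D and SCA1 KI A (0.0743). Over all alternatives the limma, edgeR or DESeq2 adjusted p ran from 0.00768 to 0.08. In the cerebellum Cox8b was at 12.8 to 21 in WT and 14.3 to 23.2 in SCA1 KI, with overlapping groups. Its partner Cox8a had an LFC of -0.02 in the cortex (95% interval -0.31 to 0.27).

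Some markers of other cell types were also lower in SCA1 KI cortex. Of the 8 forebrain interneuron markers, 2 fell in SCA1 KI cortex, Pvalb (LFC -0.66, limma adjusted p = 0.0111) and Gad1 (LFC -0.42, limma adjusted p = 0.0448). The summed list was at 37339 to 40038 in WT and at 28356, 27990.1 and 38425 in SCA1 KI A, E and F. The sum in F lay within the WT range, so the sums overlapped. Pvalb, the calcium buffer of fast-spiking interneurons, was at 1888, 2070.5 and 2167 in WT cortex B, C and D and at 1799, 1164 and 1026 in SCA1 KI cortex A, E and F. Of the 6 striated muscle genes, 2 were tested, and Acta1, the skeletal muscle actin, fell (LFC -0.77, limma adjusted p = 0.00521), from 369.8 to 462 in WT to 215 to 302 in SCA1 KI. The other tested gene, Mylpf, a light chain of fast skeletal myosin, had an LFC of 0.17 (limma adjusted p = 0.829). Myh4, a fast skeletal myosin under the minimum mean, was at 18.2 to 29.7 in WT and 3.04 to 6.31 in SCA1 KI, and the summed muscle list was at 415 to 504 against 229.7 to 339. In the cerebellum the muscle sums overlapped, at 63.5 to 71.1 in WT and 56.4 to 67.8 in SCA1 KI, and Pvalb had an LFC of -0.24 with an adjusted p of 0.501. Other lists moved in the same cortical libraries, but not all of them. None of the 7 oligodendrocyte, 7 microglia, 6 endothelium or 9 granule cell markers was called there. The share of all tested genes called lower in the cortex was 10.8%. Of the 7 astrocyte markers 5 fell, with sums of 261156 to 269789 in WT and 127452 to 191426 in SCA1 KI, and of the 9 markers of cortical excitatory neurons 3 fell, with 101719.8 to 101952 against 62777 to 74099. Of the 8 Purkinje cell markers, which cortical neurons also express in part, 3 fell (Calb1, Car8 and Itpr1) and Slc1a6 rose, with sums of 43300.1 to 46328 against 26383 to 30034. The part of these cells in the isoform results was not tested.

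The widely expressed partners of the restricted isoforms gave no genotype call. Cox8a was at 10513, 11171 and 14326 in WT cortex B, C and D and at 14793, 10540.4 and 10376 in SCA1 KI cortex A, E and F. Cox6b1 was at 4915, 5135 and 6204 in WT and 7071, 5583 and 5216 in SCA1 KI, in the same order. Cox7a2 was at 3439, 4191 and 4893 in WT and 4745, 3732 and 3824 in SCA1 KI. In each of these genes WT D and SCA1 KI A were the highest libraries of their group, and the genotypes overlapped. Cox4i1, the main isoform of subunit IV, was at 11259, 12589 and 15863 in WT and 15215, 11653 and 12069 in SCA1 KI, and Ndufa4 was at 6077, 7108 and 8992 in WT and 8944, 6830.3 and 6613 in SCA1 KI. In both, WT D and SCA1 KI A were again the highest of their groups, and the LFCs were -0.02 and 0.02. In the cerebellum the spread was narrower: Cox8a was at 7327, 8437 and 7861 in WT 2, 4 and 6 and at 8771, 7998 and 8391 in SCA1 KI 1, 3 and 5. Cox6b1 was at 5027, 4699 and 4564 in WT and 5017, 4824 and 4792 in SCA1 KI, and Cox7a2 at 4203, 4104 and 3949.8 in WT and 4366, 4231 and 4514 in SCA1 KI. Cox7a2 alone of these 3 did not overlap, being higher in SCA1 KI by an LFC of 0.10 with a limma adjusted p of 0.752. Cox4i1 was at 11783, 11329 and 12004 in WT and 12275, 11628 and 12471 in SCA1 KI, and Ndufa4 at 8217, 8147 and 7706 in WT and 7554, 7768 and 8253 in SCA1 KI, both overlapping.

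**Figure D1:**
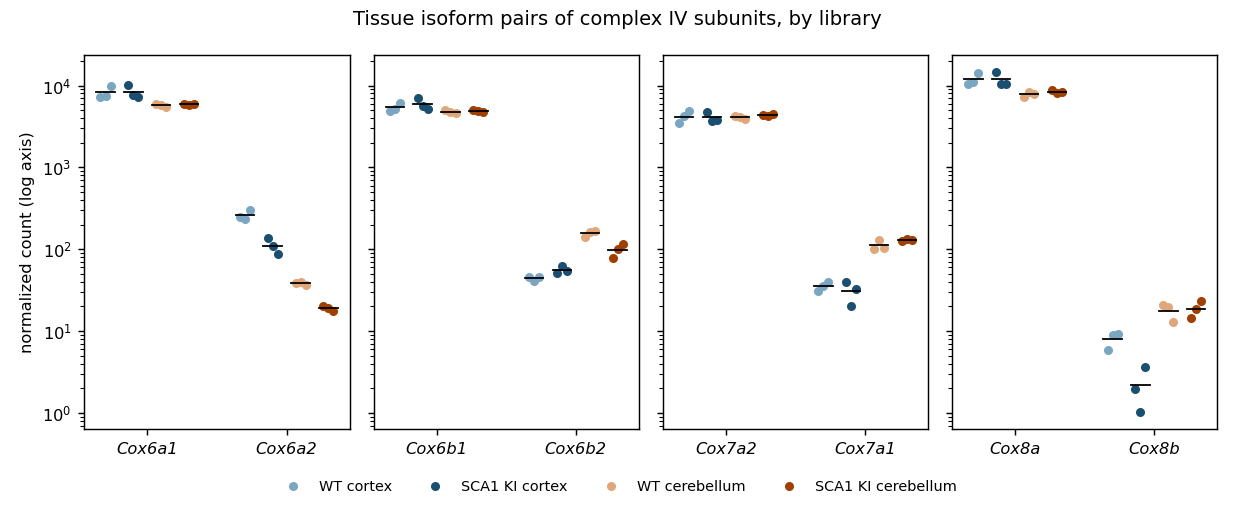
Normalized counts (log axis) of 4 pairs of complex IV isoforms in each library; points are the 3 libraries of each group, coloured as in the key, and black bars are group means. Cox6a2 is lower in SCA1 KI than in WT in both regions and Cox6b2 in the cerebellum, whereas the widely expressed partners Cox6a1, Cox6b1, Cox7a2 and Cox8a overlap between genotypes or differ by at most 0.13 on the log2 scale.

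In the cerebellum, too, 2 members fell in SCA1 KI mice and none rose: Cox6a2, described above, and Cox6b2. These are 2.47% of the members, against 5.36% of all tested genes in either direction, 0.917% higher and 4.44% lower. At an unadjusted p under 0.05, 1 member was higher (Atp5b) and 2 were lower, and edgeR and DESeq2 also called none higher. Without the fold limit, DESeq2 put Atp5b higher (LFC 0.17, DESeq2 adjusted p = 0.015), and edgeR none. Cox6b2, the testis isoform of subunit VIb (chr7:4751792-4753094, minus strand), was at 141, 161 and 168 in WT cerebellum 2, 4 and 6 and at 77.5, 99.6 and 114 in SCA1 KI cerebellum 1, 3 and 5. No SCA1 KI library reached the lowest WT value. The LFC was -0.70 (SE 0.17, 95% interval -1.06 to -0.34, limma adjusted p = 0.0278). The call was lost with the cerebellum fitted on its own (limma adjusted p = 0.0522) and without WT 4 (0.0691), WT 6 (0.104), SCA1 KI 1 (0.141) or SCA1 KI 3 (0.083), while the LFC stayed between -0.82 and -0.55 over all alternatives.

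Cox6b2 ran the other way in the cortex and was the member whose genotype effect differed between the regions. It was at 45.2, 41.0 and 45.5 in WT cortex B, C and D and at 51.2, 62.7 and 54.1 in SCA1 KI cortex A, E and F. The SCA1 KI libraries lay above the WT libraries, but the LFC of 0.34 (95% interval -0.02 to 0.70) had a limma adjusted p of 0.188. The difference between the regions was 1.04 (SE 0.24, 95% interval 0.53 to 1.55, limma adjusted p = 0.0165). It was under 0.05 in all alternatives that kept the gene, where the adjusted p ran from 0.0109 to 0.0461. This was 1 of 81 members (1.23%), against 8.15% of all tested genes for this interaction, 3.26% with a positive and 4.89% with a negative difference; without SCA1 KI cortex F, Cox8b was called as well (limma adjusted p = 0.0445). Cox6b1, the widely expressed partner, had an LFC of 0.13 in the cortex and 0.04 in the cerebellum, neither called. Per kilobase, Cox6b2 made up 2.33% to 3.07% of Cox6b1 in WT cerebellum and 1.29% to 1.99% in SCA1 KI cerebellum, and 0.612% to 0.766% in WT cortex against 0.604% to 0.937% in SCA1 KI cortex.

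Some transcripts of the thalamus and midbrain list and of glia were also lower in SCA1 KI cerebellum. The share of all tested genes called lower there was 4.44%. Choroid plexus sums overlapped, at 19497 to 72614 in WT and 825 to 75606 in SCA1 KI, with none of the 6 genes called. Their median LFC was -1.24. Besides Tcf7l2, 2 of the 6 tested genes of the thalamus and midbrain list (Pou4f1 and Lef1) fell in SCA1 KI cerebellum. The summed list was at 26584 to 27976 in WT and 22965 to 24664 in SCA1 KI. The Tcf7l2 values given above were a small part of this sum. Other genes of the list set most of it, so the sum does not measure tissue outside the cerebellum. The interneuron transcript Sst was at 368 to 864 in WT cerebellum and 41.2 to 72.6 in SCA1 KI cerebellum. The lists of glia were lower in the same libraries without overlap of their sums. The 7 oligodendrocyte markers, none called, summed to 178664 to 267729.5 in WT and 153039.6 to 153112 in SCA1 KI, with a median LFC of -0.44. The 7 astrocyte markers, of which Aldh1l1 fell, summed to 166891 to 180837 against 149261 to 154744, and the 7 microglia markers, of which P2ry12 fell, to 5218 to 6798 against 4812 to 5029. Sums of granule cell markers (152776 to 216449 in WT, 206465 to 216128 in SCA1 KI) overlapped. So did those of Purkinje cells (288136 to 361443 against 263927 to 296215) and endothelium (8704 to 9812 against 8305 to 9299). All 9 granule cell markers had an LFC above zero (median 0.15), and none of the 8 Purkinje cell markers did (median -0.29). The part of these tissues and cells in the Cox6b2 and Cox6a2 results was not tested.

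The remaining isoforms of low expression gave no genotype call. Cox7a1, the heart and skeletal muscle isoform of subunit VIIa, was at 30.9, 35.4 and 39.8 in WT cortex B, C and D and at 39.4, 20.2 and 32.4 in SCA1 KI cortex A, E and F. The groups overlapped, and the LFC was -0.24 (95% interval -0.72 to 0.23). In the cerebellum Cox7a1 was at 101.3 to 128 in WT and 126 to 133 in SCA1 KI, with an LFC of 0.22 (95% interval -0.26 to 0.69). Its partner Cox7a2 had LFCs of -0.02 and 0.10. Ndufa4l2, a hypoxia-responsive paralog of Ndufa4, was at 70.6 to 91.5 in WT cortex and 88.3 to 112 in SCA1 KI cortex (LFC 0.23, 95% interval -0.19 to 0.65), and Ndufa4 had LFCs of 0.02 in the cortex and -0.03 in the cerebellum. Cox4i2, an isoform of subunit IV known from lung and not taken by the symbol rule, was at 75.7 to 98.6 in WT cerebellum and 52.9 to 75 in SCA1 KI cerebellum, with an LFC of -0.50 and a limma adjusted p of 0.172.

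Outside these isoforms the core of the respiratory chain moved little with genotype. In the 75 members averaging 200 or more normalized counts, the cortical LFCs ran from -0.08 (Ndufb4, a membrane-arm subunit of complex I) to 0.20 (Ndufa2), and the cerebellar LFCs from -0.19 (Atp5s) to 0.17 (Atp5b). All 75 were within 0.25 in both regions. The 95% interval lay within 0.5 of zero for 74 of them in the cortex and for 74 in the cerebellum, and the median half-width was 0.23. The exception in both regions was Atp5e, the epsilon subunit of the ATP synthase, whose upper bounds were 0.54 and 0.58 and which was named after its values were seen. The fit used 1 spread for both regions, so a gene's intervals are equally wide in both. The members' median within-group SD (log2) was 0.188 to 0.197 in the cortex and 0.0415 to 0.0465 in the cerebellum. The shared spread therefore understates that of the median member in the cortex and overstates it in the cerebellum. Cortical intervals would be wider with the cortex's own spread, so the count of 74 there rests on the shared one. With each region fitted on its own, 13 of the 81 members had an unadjusted limma p under 0.05 in the cerebellum. In the cortex 2 members did. Over all 15369 tested genes it was 3756 in the cerebellum and 3851 in the cortex.

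**Figure D2:**
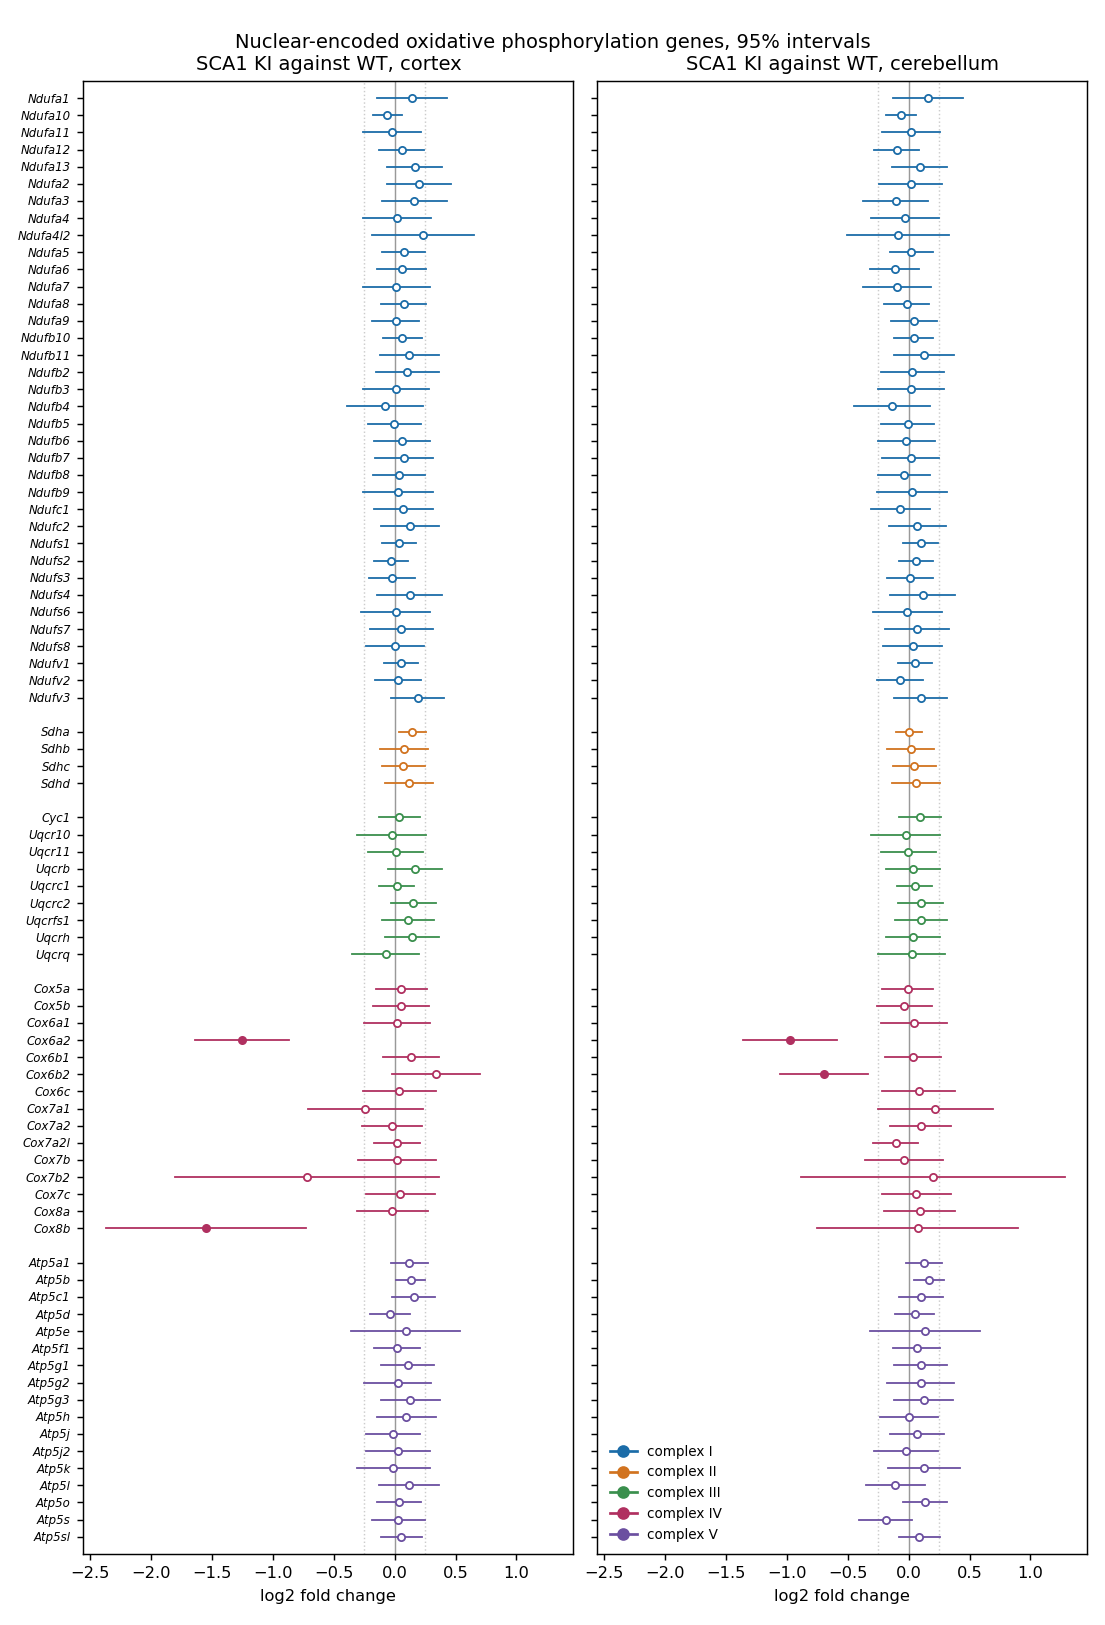
LFC of SCA1 KI against WT with its 95% interval for all 81 members in the cortex (left) and cerebellum (right), grouped and coloured by complex; filled points were called, and dotted lines mark 0.25 in either direction. Filled points are Cox6a2 and Cox8b in the cortex and Cox6a2 and Cox6b2 in the cerebellum, and the members with a mean of at least 200 lie within the dotted lines.

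By complex, none of the members of complexes I, II, III and V was called in either region by limma, edgeR or DESeq2, and an unadjusted p under 0.05 was reached by Sdha and Atp5b in the cortex and by Atp5b in the cerebellum. The median LFC in the cortex was 0.05 for complex I, 0.09 for complex II, 0.04 for complex III, 0.02 for complex IV and 0.05 for complex V. In the cerebellum the medians were 0.02, 0.03, 0.04, 0.04 and 0.10 in the same order. Complex V had the highest of these, with 14 of its 17 members above zero, against 48.7% of all tested genes. In 7 of them (Atp5a1, Atp5b, Atp5c1, Atp5f1, Atp5g1, Atp5g3 and Atp5o) every SCA1 KI library was higher than every WT library. The share of all tested genes without overlap in this direction alone was not counted, and the 17 members share their libraries. Over all 81 members, 14 were higher without overlap in the cerebellum and 6 lower, together 24.7% against 31.8% of all tested genes.

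Atp5b came nearest to a call in the cerebellum among members of this level. It was at 47360.1, 49653 and 49264 in WT cerebellum 2, 4 and 6 and at 55302, 54704 and 54123 in SCA1 KI cerebellum 1, 3 and 5. The groups were apart, by an LFC of 0.17 (SE 0.06, 95% interval 0.04 to 0.29), but the limma adjusted p was 0.121. In the cortex it was at 40847, 42528 and 43151 in WT and at 49038, 44759.6 and 44763 in SCA1 KI, again without overlap, with an LFC of 0.13 and a limma adjusted p of 0.136. Sdha, the flavoprotein that oxidises succinate, was at 14089, 15438 and 14535 in WT cortex and 16827, 15811 and 16088 in SCA1 KI cortex, also apart, with an LFC of 0.15 and a limma adjusted p of 0.0663. These 2, with Cox6b2, Cox6a2 and Cox8b, were the members without overlap in the cortex, 5 of 81 (6.17%), against 30.9% of all tested genes.

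Across the 81 members the median LFC in the cortex was 0.05, with 64 above zero. For all tested genes the median was -0.003, with 49.5% above zero. The members share their libraries, so their signs are not independent. The sign of the members' median was not stable. Their median was -0.05 without SCA1 KI A, -0.02 without WT B and 0.14 without WT D. Once the trend on exon length and GC content was removed from each library, it was -0.02, with 35 of 79 above zero. In the cerebellum the median was 0.04, with 55 of 81 above zero. For all tested genes it was -0.005, with 48.7% above zero. The members' median ran from 0.02 to 0.05 when libraries were left out in turn. Centring each library on its own median gave 0.06, where the median of all genes was 0.02.

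The members moved as a block between libraries of the same cortical group. The median deviation of the 75 members from their cortical mean was -0.17, -0.05 and 0.15 (log2) in WT B, C and D and 0.25, -0.08 and -0.08 in SCA1 KI A, E and F. All 75 were above their mean in SCA1 KI A and 72 in WT D, whereas 1 was above it in WT B and 4 in SCA1 KI E. So the highest and the lowest library of the WT group were further apart than the genotypes were. In the cerebellum the same medians lay between -0.02 and 0.05.

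**Figure D3:**
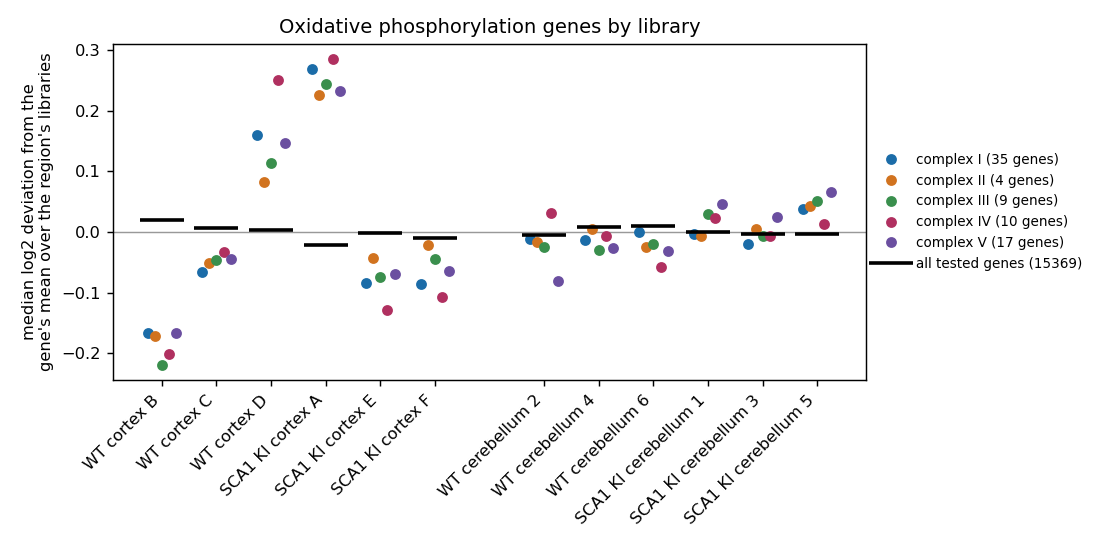
Median log2 deviation of the members of each complex (mean of at least 200; coloured points) and of all tested genes (black bars) from each gene's mean over the 6 libraries of its region. The 5 complexes are together high in WT cortex D and SCA1 KI cortex A and low in WT cortex B, and near zero in all cerebellar libraries.

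All 5 complexes shared this pattern. In SCA1 KI cortex A the complex medians ran from 0.23 (complex II) to 0.29 (complex IV), and in WT cortex B from -0.22 (complex III) to -0.17, while the median of all tested genes stayed between -0.02 and 0.02 in the cortical libraries. The SD of a member's log2 values within a group had a median of 0.188 in WT cortex and 0.197 in SCA1 KI cortex, against 0.129 and 0.139 for all tested genes. In the cerebellum it was 0.0465 in WT and 0.0415 in SCA1 KI, under the 0.107 and 0.066 of all tested genes.

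Transcript length moved with these libraries. OXPHOS genes are short: the median exon length was 983 bases in the 79 annotated members and 3356 bases in all tested genes with a length. Within the members, shorter transcripts deviated more upward in WT D (Spearman's rho -0.49 over 73 genes, which share their library) and in SCA1 KI A (-0.47), and rho was 0.33 in WT B. With the trend on length and GC content removed, the library medians shrank to 0.09 in WT D, 0.06 in SCA1 KI A and -0.09 in WT B. Without WT D and SCA1 KI A, a choice made after these values were seen, Cox6a2 (LFC -1.31, limma adjusted p = 0.00167) and Cox7b2, a testis isoform of subunit VIIb (LFC -1.54, limma adjusted p = 0.0427), were called lower in the cortex and Cox8b was not. With all libraries Cox7b2 was at 10.7, 11.1 and 6.83 in WT B, C and D and at 13.8, 2.02 and 4.5 in SCA1 KI A, E and F, overlapping (LFC -0.72, limma adjusted p = 0.365).

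The regions differed in some subunits of every complex. In WT mice 20 of the 81 members (24.7%) differed between cortex and cerebellum, 9 higher and 11 lower in the cortex, against 61.7% of all tested genes, 31.0% higher and 30.7% lower. In SCA1 KI mice 19 members (23.5%) differed, 12 higher and 7 lower, against 62.4%, 32.0% and 30.5%. The comparisons share no library, and 14 members were called in both with the same sign, 70.0% of the WT and 73.7% of the SCA1 KI calls. Over all tested genes the matching shares were 83.5% and 82.5%. Of the 14 members, Cox5b, Uqcr11, Ndufb9, Cox8a, Sdhb, Cox6a1 and Cox6a2 were higher in the cortex. Ndufs1, Sdhc, Atp5g3, Cox7b2, Cox6b2, Cox7a1 and Cox8b were lower there. The split of the calls depended on the cortical libraries described above: without WT D and SCA1 KI A it was 3 higher and 19 lower in WT and 7 higher and 18 lower in SCA1 KI, and with the length and GC trend removed it was 7 and 12 in WT and 7 and 14 in SCA1 KI.

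**Figure D4:**
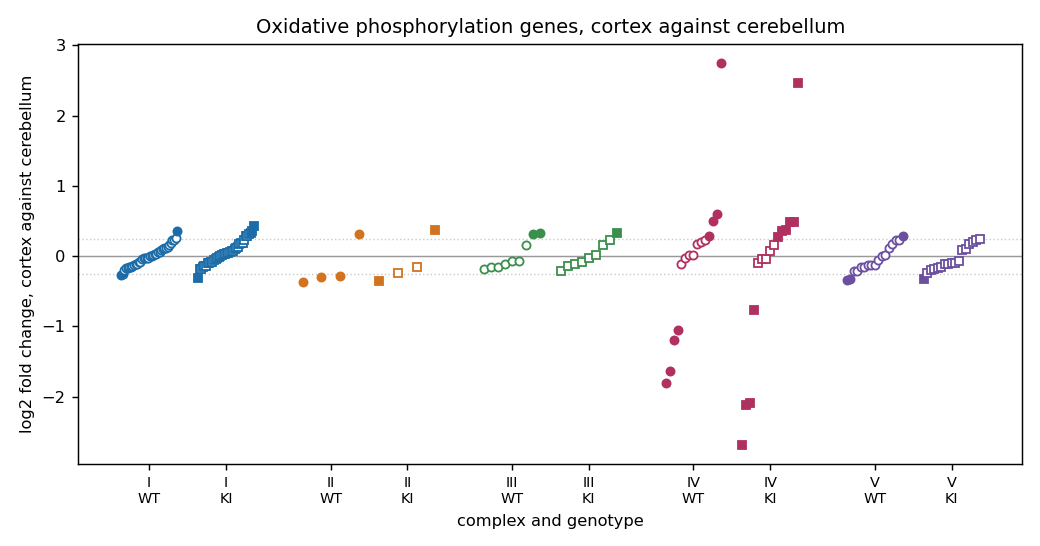
LFC of cortex against cerebellum for the 81 members by complex, in WT (circles) and SCA1 KI (squares) mice; filled points were called and dotted lines mark 0.25 in either direction. Complex IV spans the range from Cox6a2, higher in the cortex, to Cox6b2 and Cox8b, lower in the cortex, and in complex II Sdhb stands above zero and the other subunits below.

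The 4 subunits of complex II, which come in equal numbers in the enzyme, did not share a direction. Sdhb, the iron-sulfur subunit, was at 3761, 4267 and 4773 in WT cortex B, C and D and at 3462, 3485 and 3338 in WT cerebellum 2, 4 and 6, higher in the cortex without overlap (LFC 0.31, SE 0.09, limma adjusted p = 0.00863). Sdhc, a membrane anchor that binds ubiquinone, was at 3208, 3195 and 3444 in the cortex and 4176, 4368 and 4204 in the cerebellum, lower in the cortex without overlap (LFC -0.37, SE 0.08, limma adjusted p = 0.00131). Sdha (LFC -0.30) and Sdhd, the other anchor (LFC -0.29), were also lower in WT cortex. In SCA1 KI mice Sdhb (LFC 0.37) and Sdhc (LFC -0.35) were called again, and Sdha (-0.16) and Sdhd (-0.24) stayed under the fold limit. Without WT D the WT LFC of Sdhb was 0.23, under the fold limit, and with the length and GC trend removed it was 0.26; Sdhc ran from -0.41 to -0.35 over the alternatives.

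In complex IV the isoforms set the range. Cox6a2 was higher in WT cortex by an LFC of 2.75 (SE 0.18, limma adjusted p = 2.3e-08), and Cox6b2 (-1.81), Cox7a1 (-1.63), Cox7b2 (-1.20) and Cox8b (-1.06) were lower. The call of Cox8b was lost without WT B, WT 2 or WT 4 and under DESeq2 (limma or DESeq2 adjusted p of 0.0517 to 0.0841), while its LFC stayed between -1.27 and -0.80 over the alternatives. So the muscle isoforms did not share a direction: Cox6a2 was the cortical one, and Cox7a1 and Cox8b were the cerebellar ones. Of the widely expressed partners, Cox8a was at 10513, 11171 and 14326 in WT cortex and 7327, 8437 and 7861 in WT cerebellum, higher in the cortex without overlap (LFC 0.60, SE 0.13, limma adjusted p = 0.00158). Cox6a1 was likewise higher (LFC 0.51, limma adjusted p = 0.00293), but its LFC was 0.23 with the length and GC trend removed. Cox6b1 (0.18), Cox7a2 (0.02) and Cox4i1 (0.16) were not called in WT.

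In complex I, Ndufb9, a membrane-arm subunit, was at 4384, 4669 and 6209 in WT cortex and at 3887, 3926 and 3964 in WT cerebellum. It was higher in the cortex without overlap (LFC 0.36, SE 0.13, limma adjusted p = 0.0302), although WT D lay well above B and C, and without WT D the LFC was 0.20 with a limma adjusted p of 0.148. The call was also lost without WT 2, WT 4 or WT 6 (limma adjusted p of 0.0611 to 0.0632). Ndufv3, an accessory subunit of the NADH-oxidising module, was at 1727, 1655 and 2049 in WT cortex and 2084, 2229 and 2201 in WT cerebellum, lower in the cortex (LFC -0.27, SE 0.10, limma adjusted p = 0.0324), a call lost without WT B, WT C, WT 4 or WT 6 (limma adjusted p of 0.0797 to 0.126). In SCA1 KI mice its LFC was -0.18 and it was not called. Ndufs1, the large iron-sulfur subunit, was lower in the cortex in both genotypes (LFC -0.25 and -0.31).

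Complex III held 2 small subunits that were higher in WT cortex, Uqcrq and Uqcr11, both with an LFC of 0.32. Uqcrq was at 2899.5, 3064 and 4006 in WT cortex and 2604, 2596 and 2685 in WT cerebellum, apart but with WT D high (limma adjusted p = 0.0387), and its call was lost in 6 alternatives and in SCA1 KI mice (LFC 0.23). Uqcrh, the hinge protein at the cytochrome c1 side, had the lowest LFC of the complex, at 3609, 4223 and 4699 in WT cortex and 4780.4, 4788 and 4566 in WT cerebellum. Those libraries overlapped, and its LFC of -0.18 was not called.

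In complex V, Atp5g1, Atp5g2 and Atp5g3 encode the same mature subunit of the membrane ring, and Atp5g3 was the one called. Atp5g3 was at 5052, 6072 and 6896 in WT cortex and 7707, 7557 and 7238 in WT cerebellum, lower in the cortex without overlap (LFC -0.33, SE 0.11, limma adjusted p = 0.0187), a call lost without WT B (0.0919). Atp5g1 was at 3580.4, 3257 and 3898 in WT cortex and 3128, 2996 and 2979.5 in WT cerebellum, higher without overlap, but under the fold limit (LFC 0.23, limma adjusted p = 0.0554). Atp5g2 had an LFC of 0.17 and was not called, and the LFC was -0.11 with the length and GC trend removed. Their genotype LFCs lay between 0.03 and 0.13 in both regions, none called.

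Atp5d, the delta subunit of the central stalk, was at 5315, 5397 and 6099 in WT cortex and 4458, 4600.1 and 4688 in WT cerebellum, higher in the cortex (LFC 0.29, SE 0.07, limma adjusted p = 0.00421), an LFC that was 0.11 with the length and GC trend removed and 0.23 without WT D. Atp5l, subunit g of the membrane part, was at 772, 685 and 844 in WT cortex and 847, 1019 and 1042 in WT cerebellum, lower in the cortex, with no overlap, WT D and WT 2 being almost level (LFC -0.34, SE 0.11, limma adjusted p = 0.0183), a call lost without WT C, WT 4 or WT 6 (limma adjusted p of 0.063 to 0.0825). Neither was called in SCA1 KI mice, where the LFCs were 0.20 and -0.11.

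In SCA1 KI mice Sdhb was at 5101, 4106 and 4262 in cortex A, E and F and at 3485, 3377 and 3537 in cerebellum 1, 3 and 5. Sdhc was at 4010.0, 3058 and 3335 in the cortex and 4295, 4390.2 and 4464 in the cerebellum. As in WT mice neither gene overlapped between the regions, and the subunits lay on opposite sides. Ndufb9 was at 6385, 4468 and 4709 in the cortex and 3957, 3943 and 4113 in the cerebellum, and Ndufv3 at 2411, 1829 and 1968 in the cortex and 2417, 2193 and 2368 in the cerebellum. Ndufb9 was again higher in the cortex (LFC 0.36, limma adjusted p = 0.0306), with SCA1 KI A far above E and F and an LFC of 0.20 without it, and the call was also lost without any 1 of the cerebellar SCA1 KI libraries (limma adjusted p of 0.0525 to 0.0734), whereas Ndufv3 overlapped with A inside the cerebellar range. Atp5g3 was at 7686, 5711 and 6267 in the cortex and 8082, 8075 and 8335 in the cerebellum, lower in the cortex without overlap (LFC -0.33, limma adjusted p = 0.0195), a call lost without SCA1 KI cortex E, SCA1 KI cortex F or SCA1 KI cerebellum 5 (limma adjusted p of 0.0547 to 0.0933). Uqcrq was at 3789, 2938 and 2733 in the cortex and 2857, 2464 and 2704 in the cerebellum, and Uqcrh at 5399, 4193 and 4226 in the cortex and 4759, 4773 and 4941 in the cerebellum, both overlapping. Atp5d was at 6028, 5227 and 5104 in the cortex and 4962, 4466 and 4790.3 in the cerebellum, apart but under the fold limit, and Atp5l at 903, 887 and 711 in the cortex and 874, 864 and 949.7 in the cerebellum, overlapping. Between the genotypes these 9 subunits had LFCs from -0.11 (Atp5l in the cerebellum) to 0.19 (Ndufv3 in the cortex), none called.

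Other genes of the pathway were counted by list, beside the 15.6% of all tested genes called in the cortex and the 5.36% in the cerebellum. The 7 tested subunit and partner genes that the symbol rule misses had none, with 1 lower at an unadjusted p under 0.05 in the cerebellum (Cox4i2). Of 47 tested assembly factors 3 (6.38%) were called in the cortex. Cox20, a chaperone of complex IV assembly, rose in SCA1 KI cortex (LFC 0.43, limma adjusted p = 0.00359), and Ttc19, which acts on complex III, and Cmc2, on complex IV, fell (LFC -0.33 and -0.39, limma adjusted p = 0.00427 and 0.0206). In the cerebellum limma, edgeR and DESeq2 called none of them, and 4 were lower at an unadjusted p under 0.05. The 16 enzymes of the TCA cycle and pyruvate dehydrogenase had no call in either region by these tools, with 2 higher at an unadjusted p under 0.05 in each region by limma. Among 12 carriers and channels 2 (16.7%) were called in the cortex, close to the share of all tested genes. Vdac3, an outer membrane pore, rose in SCA1 KI cortex (LFC 0.32, limma adjusted p = 0.0112) and Slc25a22, a glutamate carrier, fell (LFC -0.28, limma adjusted p = 0.0101), with no call in the cerebellum.

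Of 19 tested genes listed as regulators of OXPHOS transcription, nuclear or mitochondrial, 6 (31.6%) fell in SCA1 KI cortex and none rose. Of all tested genes 10.8% were lower. The list includes factors of wider action, such as Ppara, Ppard and Foxo1, and was chosen with earlier results of these data known. The estrogen-related receptors, which bind OXPHOS promoters, were 3 of the 6. Esrra was at 1906, 2128 and 2048 in WT cortex B, C and D and at 1620.2, 1595 and 1711 in SCA1 KI cortex A, E and F (LFC -0.30, SE 0.07, limma adjusted p = 0.00775). Esrrg was at 2083, 2011 and 1867 in WT and 1669, 1557 and 1489 in SCA1 KI (LFC -0.34, SE 0.06, limma adjusted p = 0.00264). Both fell without overlap.

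Esrrb, the scarcest of the family, was at 108, 100.8 and 143 in WT cortex and 65, 54.6 and 75.7 in SCA1 KI cortex, again apart (LFC -0.84, SE 0.15, limma adjusted p = 0.00244). Ppargc1a, the coactivator known as PGC-1alpha, was at 2749.8, 2917 and 2583 in WT and 2026, 2309 and 2461 in SCA1 KI, apart, with an LFC of -0.28 (SE 0.08, limma adjusted p = 0.0219). The nuclear receptors Ppara (LFC -0.43, limma adjusted p = 0.0196) and Ppard (LFC -0.34, limma adjusted p = 0.00421) fell as well. The calls of Ppargc1a and Ppara were each lost in 5 alternatives, among them the cortex fitted on its own (limma adjusted p = 0.0915 and 0.0676). Without WT D and SCA1 KI A the LFC of Ppargc1a was -0.25, just under the fold limit, and Ppara had a limma adjusted p of 0.0838. The other 4 calls held under all alternatives. Nrf1 (LFC -0.05), Gabpa (0.14), Yy1 (0.01), Sp1 (-0.06) and Tfam, the mitochondrial transcription factor (0.07), were not called.

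**Figure D5:**
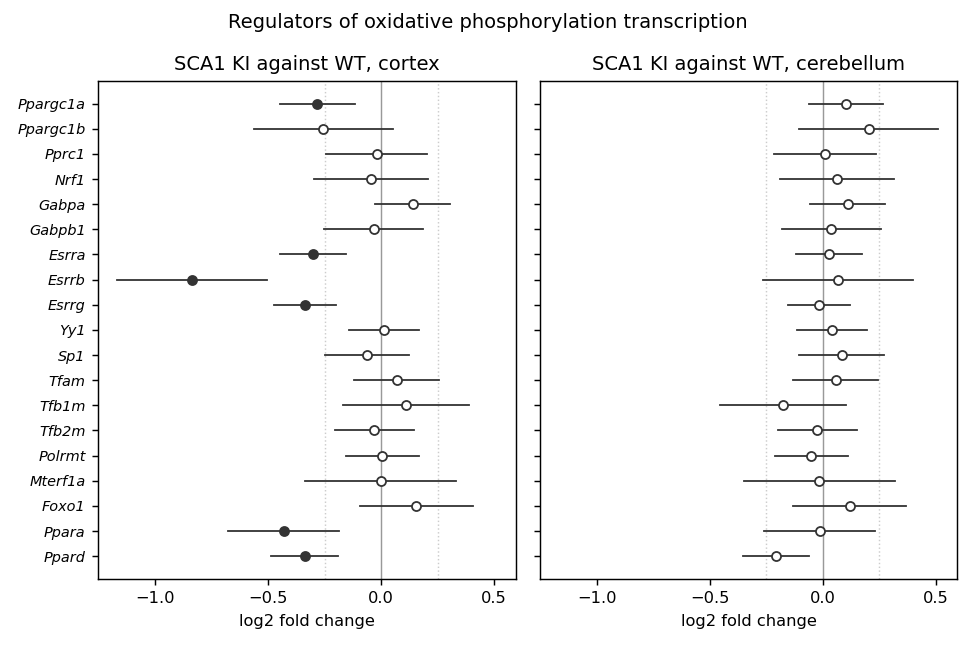
LFC of SCA1 KI against WT with its 95% interval for the 19 tested genes listed as regulators of OXPHOS transcription, in the cortex (left) and cerebellum (right). Filled points were called and dotted lines mark 0.25 in either direction. Ppargc1a, Esrra, Esrrb, Esrrg, Ppara and Ppard are filled in the cortex and none in the cerebellum.

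In the cerebellum limma, edgeR and DESeq2 called none of the 19 regulators, with 1, Ppard, lower at an unadjusted p under 0.05. The genotype effect differed between the regions for Ppargc1a (-0.39, limma adjusted p = 0.044), Esrrb (-0.90, limma adjusted p = 0.0221) and Esrrg (-0.32, limma adjusted p = 0.0425), whereas Esrra (-0.33, adjusted p = 0.0521), Ppara and Ppard missed the threshold. Markers of neurons and astrocytes moved with these regulators in the cortex. The values of both lists are those given above for the cortical libraries. Their part in the regulator results was not tested.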

How the data were processed

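Per the labels and the study's methods, the authors aligned poly-A RNA-seq reads to mm10 with STAR, counted reads per gene with featureCounts and divided the counts by DESeq2 size factors. The deposited signal values are these normalized counts, 1 column per library. Tool versions, strand use and the handling of reads that map to several places are not given in the sources used here, and small-subunit genes have processed pseudogenes that such reads can come from. Because 100% of the values in each library were whole multiples of 1 step (tolerance 0.01 reads), reads were recovered: 29520855 to 51311309 on genes per library. Replicate libraries differed beyond sampling noise in every pair (lowest chi-square per gene 7.43).

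Values were tested as log2(normalized count + 1) with limma 3.58.1 (R 4.3.3) over all 12 libraries as 4 group means, for the 15369 of 15759 genes with a mean of at least 10. The p-values were Benjamini-Hochberg adjusted over those genes, and a call needed an adjusted p under 0.05 and, except for the difference between regions, an LFC beyond 0.25. edgeR 4.0.16 and DESeq2 1.42.0 on the recovered reads, pseudocounts of 0.5 and 5, other minimum means, centring, each region on its own, removal of a trend on exon length and GC content, and each library left out were alternatives. On simulated data for the cortical comparison (15369 genes, 200 changed) limma recovered 79% of changes of 0.5 and 95% of changes of 1 (log2). It called 9 unchanged genes. In the cortex the members' median within-group SD (log2) was 0.188 (WT) and 0.197 (SCA1 KI), against 0.129 and 0.139 for all tested genes. Recovery at the members' own spread was not tested.

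Genes with values for every library were the called members, the members with the highest and lowest WT region LFC of each complex, the isoform sets and Atxn1. Members and gene lists were chosen with earlier results of these data known. Positions and exon lengths come from GENCODE vM21 (79 of 81 members matched, not Atp5o and Atp5sl), and promoters from RefSeq. Subunits encoded by the mitochondrial genome were not analysed here.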

Additional observations from a re-analysis of the deposited data

Results flagged for a closer look

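The genotype effect on Cox6b2 differed between the regions. The difference (cortex minus cerebellum) was 1.04 on the log2 scale (SE 0.24, limma adjusted p = 0.0165), from an LFC of 0.34 in the cortex and -0.70 in the cerebellum, with 3 of 3 SCA1 KI libraries above all WT libraries in the cortex and 3 of 3 below them in the cerebellum. No explanation was tested. With 3 libraries per group, single libraries were not tested as outliers.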

How the results depend on the processing

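Cox6a2 was called lower in SCA1 KI cortex and cerebellum under every alternative run, with limma, edgeR or DESeq2 adjusted p of at most 0.00309 and 0.0287. The 2 members called in the cortex became 1 with a minimum mean of 100 (which drops Cox8b), with each region fitted on its own and with DESeq2, and remained 2 without each single library. The 2 called in the cerebellum became 1 with a minimum mean of 100, with each region fitted on its own and without WT 4, WT 6, SCA1 KI 1 or SCA1 KI 3, a range of 1 to 2 when libraries were left out. The difference between regions was called in 1 member, in 0 with a minimum mean of 100, which drops Cox6b2, and in 1 to 2 when libraries were left out, 2 being without SCA1 KI cortex F. Centring the libraries moved the cerebellar median LFC to 0.0596. Leaving out libraries gave cortical medians of -0.05 to 0.14, cerebellar medians of 0.02 to 0.05, 13 to 21 members that differed between the WT regions (13 without WT cerebellum 4) and 17 to 24 between the SCA1 KI regions, and 4 to 6 regulators lower in the cortex. For single genes, 2767 values kept their direction and side of the threshold, 62 lost a call, 15 gained one and 8 moved. The causes were not tested. No paired analysis was possible because the columns carry letters and numbers of their own, not the replicate numbers of the labels. With 3 libraries a group and 1 spread shared by both regions, the median half-width of a member's 95% interval was 0.23 (log2). The shared spread is smaller than the median member's own spread in the cortex. Both limit the genotype effects that could be called.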
